A study of Arabidopsis thaliana with 12 samples.

Results

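The WRKY genes form one of the large families of transcription factors of plants. In total, 52 WRKY genes were examined among the 23069 genes of the deposited expression table of *Arabidopsis thaliana* rosette leaves. The 52 genes were taken from a list of locus identifiers of the family. The rule used no expression value, but the list was drawn up with earlier results of these data known. All of them had a row in the table, and 17 other genes with a WRKY name in the annotation were in the table but not on the list. Leaves of 30-day-old *kaku4-2* plants and of WT plants (genotype label col, Col-0 in the study's methods) of the same age were compared by RNA-seq, with 3 libraries of each genotype, which the study describes as independent biological replicates. *kaku4-2* is 1 T-DNA insertion line, described as a knockdown of *KAKU4*, which encodes a protein of the plant nuclear lamina. A second insertion line was not analysed here. ChIP-seq libraries of histone marks belong to the same study and were not analysed here.

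WRKY factors bind DNA through a domain of the conserved heptad WRKYGQK followed by a zinc finger, and their usual site is the W box, a short element around TTGAC that is frequent in promoters of defence and senescence genes, including promoters of WRKY genes. They are grouped by structure. Factors of group I carry a pair of WRKY domains, factors of group II carry a single domain with the same C2H2 finger and are split into IIa to IIe, and factors of group III carry a single domain with a C2HC finger. In leaves, members of the family act in immunity, in the response to salicylic acid and in the control of senescence, both as activators and as repressors.

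Translation of the annotated coding sequences (TAIR10.1 gene models) found the heptad in every one of the 52 genes, 63 times in all. The 11 genes of group I held it in 2 copies and the other 41 genes in 1 copy. The heptad read WRKYGQK at 61 of the places and WRKYGKK at 2, in *WRKY50* and *WRKY51*, and 9 genes, those of group III, had the C2HC finger. The coding sequences of the heptad are shown for genes on which the results below turn and for the pair with the variant heptad, with the sixth codon in capitals, which encodes glutamine in the first 5 lines and lysine in *WRKY50* and *WRKY51*.
WRKY33, first copy, chr2:16109358-16109378, plus strand: tggagaaagtacggaCAAaaa
WRKY33, second copy, chr2:16109982-16110002, plus strand: tggagaaaatacggcCAGaaa
WRKY53, chr4:12393134-12393154, minus strand: tggagaaaatatggtCAAaaa
WRKY70, chr3:20909760-20909780, minus strand: tggaggaaatatggaCAAaag
WRKY40, chr1:30384789-30384809, plus strand: tggaggaaatatggaCAGaaa
WRKY50, chr5:9147579-9147599, minus strand: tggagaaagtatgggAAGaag
WRKY51, chr5:25908864-25908884, plus strand: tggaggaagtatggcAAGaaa

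Expression is given as FPKM, the fragments per kilobase of transcript relative to a per-library total, as the authors deposited it. The limma test was run on log2(FPKM + 0.1) and needed a mean of at least 0.1 FPKM over the libraries, a minimum reached by 20638 genes and by 50 of the 52 WRKY genes. A gene was called upregulated or downregulated in *kaku4-2* by the cutoff of the study, a log2 ratio of the median FPKM of at least 0.6 in size with an unadjusted P-value of at most 0.05. The log2 fold changes below are differences of mean log2(FPKM + 0.1), and the added 0.1 understates the change of weakly expressed genes. In *KAKU4* itself (AT4G31430, chromosome 4, 15248377 to 15252837 in TAIR10.1), FPKM was 0.402, 0.433 and 0.313 in *kaku4-2* and 2.69, 3.61 and 2.51 in WT, without overlap of the genotypes (log2 fold change -2.64, standard error of the fit (SE) 0.41, limma, Benjamini-Hochberg adjusted p = 0.00933). *kaku4-2* replicate 3 stood apart from the other libraries, with a correlation of 0.895 to 0.936 with them against 0.963 to 0.981 among the other 5, and with an FPKM sum of 829805 against 1245643 to 1767459. The FPKM table holds no read totals, and the study's mapping summary lists nearly equal mapped reads for all libraries, so the FPKM sums are not a measure of depth. The fragments behind single values are not given here. The leaf markers *RBCS1A*, *RCA* and *LHB1B2* together measured 16670 to 21520 FPKM in *kaku4-2* and 20290 to 28740 FPKM in WT, and the root markers *CASP1* and *CASP2* together at most 0.135 FPKM in *kaku4-2* and 0.348 FPKM in WT. Guard cell markers (*MYB60*, *KAT1* and *FAMA*) together measured 12.2 to 18.4 FPKM in *kaku4-2* and 10.7 to 15.0 FPKM in WT, the companion cell marker *SUC2* 13.7 to 35.9 FPKM in *kaku4-2* and 18.8 to 26.3 FPKM in WT, and flower markers (*AP3*, *PI* and *AG*) at most 1.40 FPKM in *kaku4-2* and 2.92 FPKM in WT. The seed marker *CRU3* was at most 0.155 FPKM in *kaku4-2* and listed at 0 in WT, and the part of other cell types in the results was not tested. In bulk leaves, a change in the share of cells of a type and a change of RNA per cell cannot be told apart.

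Summed over the family, WRKY transcripts were more abundant in *kaku4-2* leaves, and the increase was uneven over the members. The summed FPKM of the 52 genes was 822, 783 and 659 in the *kaku4-2* libraries and 529, 481 and 522 in the WT libraries, without overlap of the genotypes. *WRKY70* alone made up 18.0% to 26.9% of it in *kaku4-2* and 10.9% to 19.3% in WT. The sums of groups I and III did not overlap either (group I, 72.7 to 93.9 FPKM against 36.9 to 49.7 FPKM in WT). Nor did that of group IIa (69.1 to 77.1 FPKM against 34.7 to 47.5 FPKM in WT). The sum of all 32 genes of group II, IIa included, overlapped, 275 to 429 FPKM in *kaku4-2* and 289 to 353 FPKM in WT. Their median log2 fold change was 0.04 over the 30 genes tested. As a share of the FPKM sum of the library the family made up 0.0660%, 0.0609% and 0.0794% in *kaku4-2*, against 0.0407%, 0.0314% and 0.0295% in WT. The FPKM sums themselves differed, 829805 to 1285627 in *kaku4-2* and 1298744 to 1767459 in WT, which widens the contrast of the shares. *kaku4-2* replicate 3 had the lowest WRKY sum of its genotype but the highest share, its FPKM sum being the lowest. By the cutoff, 12 of the 50 tested genes (24%) were upregulated and 0 were downregulated, beside 5.02% of all genes tested upregulated and 6.64% downregulated. The upregulated genes were *WRKY2*, *WRKY11*, *WRKY18*, *WRKY25*, *WRKY26*, *WRKY31*, *WRKY33*, *WRKY40*, *WRKY48*, *WRKY53*, *WRKY70* and *WRKY75*, with log2 fold changes of 0.71 to 1.87. These same 12 were the only members with an unadjusted p of at most 0.05 in limma in either direction, so that count adds nothing to the calls. *WRKY31*, listed at 0 in WT, reached the minimum for the test only through its *kaku4-2* values. In this count and in those that follow it could only stand as higher. With a mean FPKM of at least 1 required, which leaves *WRKY31* out, 10 of 39 members (25.6%) were upregulated, beside 4.96% of all genes tested. Log2 fold changes were above 0 in 35 members and below 0 in 15, with a median of 0.55 against -0.02 over all genes tested. In 14 members every *kaku4-2* library lay above every WT library and in 1 member, *WRKY69*, every *kaku4-2* library lay below (all genes tested, 7.92% above and 15.0% below). For a single gene this separation is the smallest p of the exact permutation test of 3 against 3 libraries, 0.10. After Benjamini-Hochberg adjustment over all genes tested, *WRKY53* and *WRKY40* had an adjusted p of at most 0.05 in limma, 2 of 50 members, beside 0.48% of all genes. Without WT replicate 1 or without WT replicate 2 this number was 0 (beside 0.097% and 0.179% of all genes tested). Without WT replicate 3 it was 1 (beside 0.261%). Without *kaku4-2* replicate 3, 17 of 49 members were upregulated, beside 4.65% of all genes tested. In that fit 2 members, *WRKY17* and *WRKY47*, were downregulated, beside 1369 of 20555 genes tested.

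**Figure D1:**
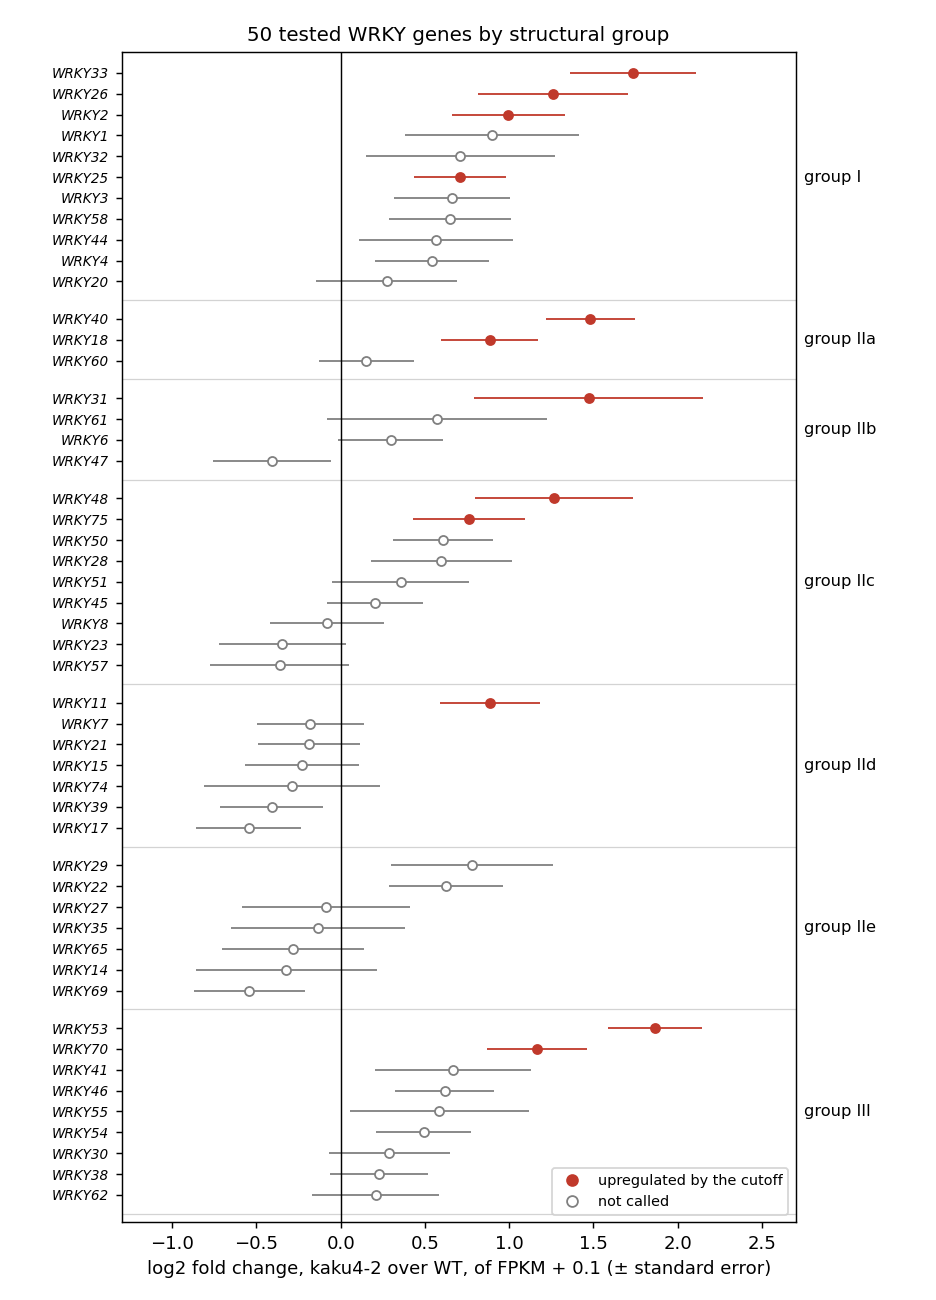
Log2 fold change of FPKM + 0.1, *kaku4-2* over WT, on the x axis for the 50 tested WRKY genes, sorted within structural groups on the y axis, with bars of ± 1 standard error from limma. Filled points are the 12 genes upregulated by the cutoff, and all 11 genes of group I and all 9 genes of group III lie above 0, whereas 6 of 7 genes of group IId and 5 of 7 of group IIe lie below 0, a tilt of group IId that turned over in 2 alternatives given in the text. The value of *WRKY31*, listed at 0 in WT, rests on the added 0.1.

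The group III factors, which include the best studied WRKY regulators of leaf senescence, included *WRKY53*, with a log2 fold change of 1.87, and *WRKY70*, the most abundant WRKY transcript in *kaku4-2*. *WRKY53* (AT4G23810), which encodes an activator of leaf senescence, measured 62.3, 60.5 and 46.8 FPKM in *kaku4-2* and 19.7, 12.5 and 14.5 FPKM in WT. All 3 *kaku4-2* libraries were above all 3 WT libraries, and the lowest *kaku4-2* value was well above the highest WT value. The log2 fold change was 1.87 (SE 0.28, limma, Benjamini-Hochberg adjusted p = 0.0079, 1.08e-07 to 0.0851 over the alternatives). It stood between 1.72 and 2.05 with each library left out in turn. Leaving aside *WRKY31*, which was listed at 0 in WT, it was the largest of the family in the fit of all libraries, but *WRKY33* was above it without *kaku4-2* replicate 1 (1.96 against 1.79) and without *kaku4-2* replicate 2 (1.89 against 1.81). *WRKY70* (AT3G56400), which encodes a factor induced by salicylic acid that restrains senescence and links the salicylic acid and jasmonate pathways, measured 159, 141 and 177 FPKM in *kaku4-2* and 102, 60.0 and 57.1 FPKM in WT. WT replicate 1 was the highest of the WT libraries and still below every *kaku4-2* library. A log2 fold change of 1.17 was found (SE 0.30, limma, Benjamini-Hochberg adjusted p = 0.125), and the gene passed the cutoff in all 6 fits with a library left out. Its close relative *WRKY54* (AT2G40750) measured 43.0, 39.5 and 26.3 FPKM in *kaku4-2* and 27.5, 22.3 and 25.9 FPKM in WT, where *kaku4-2* replicate 3 lay within the WT range, and it did not pass the cutoff (log2 fold change 0.49, unadjusted p = 0.102 from limma). The other 6 genes of the group, *WRKY30*, *WRKY38*, *WRKY41*, *WRKY46*, *WRKY55* and *WRKY62*, did not pass the cutoff, with log2 fold changes of 0.21 in *WRKY62* (AT5G01900) to 0.67 in *WRKY41* (AT4G11070). *WRKY41*, a close relative of *WRKY53*, was weakly expressed, with 0.765, 1.31 and 0.745 FPKM in *kaku4-2* and 0.678, 0.537 and 0.419 FPKM in WT. Its *kaku4-2* libraries were above its WT libraries, but the difference did not pass the test (log2 fold change 0.67, unadjusted p = 0.171 from limma). The 9 genes of group III summed to 290 to 319 FPKM in *kaku4-2* and 132 to 190 FPKM in WT. Each had a log2 fold change above 0, except for 1 gene without *kaku4-2* replicate 3 and 2 genes with library weights in limma.

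In group I, 4 of 11 genes were upregulated, *WRKY33* (AT2G38470), *WRKY26* (AT5G07100), *WRKY2* (AT5G56270) and *WRKY25* (AT2G30250), and the log2 fold change was above 0 in all 11 (median 0.71). With the trend of transcript length removed, or without *kaku4-2* replicate 3, it was above 0 in 10 genes, and with library weights in 9. *WRKY33*, which encodes a factor needed for camalexin synthesis and for resistance to necrotrophic fungi, measured 10.2, 11.2 and 23.7 FPKM in *kaku4-2* and 5.76, 3.41 and 3.58 FPKM in WT. The genotypes did not overlap, and *kaku4-2* replicate 3 was far above the other *kaku4-2* libraries. Its log2 fold change was 1.73 (SE 0.37, limma, Benjamini-Hochberg adjusted p = 0.0648), and it was 1.35 to 1.97 with each library left out in turn. *WRKY25* and *WRKY26* encode relatives of WRKY33 that act with it in the response to heat. *WRKY25* measured 31.5, 27.3 and 23.5 FPKM in *kaku4-2* and 19.4, 16.3 and 14.5 FPKM in WT, and its log2 fold change was 0.71 (SE 0.27, unadjusted p = 0.0214). *WRKY26* measured 1.99, 3.26 and 3.83 FPKM in *kaku4-2* and 0.650, 1.86 and 1.27 FPKM in WT, and its log2 fold change was 1.26 (SE 0.45, unadjusted p = 0.0136). The libraries of both genes were separated by genotype, with *kaku4-2* replicate 1 only slightly above WT replicate 2 in *WRKY26*. *WRKY2*, known from pollen development and from seed germination, measured 3.91, 5.07 and 4.68 FPKM in *kaku4-2* and 2.56, 2.32 and 1.85 FPKM in WT (log2 fold change 1.00, SE 0.34, unadjusted p = 0.0107). Of these 4 genes, *WRKY33* passed the cutoff in all 6 fits with a library left out, *WRKY26* in 5, *WRKY2* in 4 and *WRKY25* in 2. *WRKY58* (AT3G01080), which encodes a factor studied in systemic acquired resistance and which the study chose for its ChIP-qPCR, measured 7.65, 8.18 and 4.10 FPKM in *kaku4-2* and 3.05, 5.03 and 4.23 FPKM in WT. *kaku4-2* replicate 3 lay within the WT range and the other *kaku4-2* libraries above it, and the gene did not pass the cutoff (log2 fold change 0.65, unadjusted p = 0.0955 from limma). Without *kaku4-2* replicate 3 it did, with a log2 fold change of 0.96. The other 6 genes did not pass the cutoff. They were *WRKY1*, *WRKY20* and *WRKY32* (log2 fold changes of 0.90, 0.27 and 0.71), *WRKY3* (AT2G03340) and *WRKY4* (AT1G13960), known from resistance to necrotrophic fungi (0.66 and 0.54), and *WRKY44* (AT2G37260), known as *TTG2* from trichomes and the seed coat (0.56).

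In group IIa, 2 of 3 genes were upregulated. *WRKY18* (AT4G31800), *WRKY40* (AT1G80840) and *WRKY60* (AT2G25000) encode factors that bind each other and restrain parts of the defence and abscisic acid responses. *WRKY40* measured 31.9, 31.3 and 33.5 FPKM in *kaku4-2* and 13.2, 11.4 and 9.99 FPKM in WT, with a small spread within each genotype (32.2 ± 1.15 FPKM against 11.6 ± 1.61 FPKM in WT, SD, n = 3 each). The log2 fold change was 1.48 (SE 0.27, limma, Benjamini-Hochberg adjusted p = 0.0276, 3.64e-06 to 0.179 over the alternatives). *WRKY18* measured 28.7, 22.5 and 28.7 FPKM in *kaku4-2* and 19.1, 12.4 and 12.4 FPKM in WT, without overlap (log2 fold change 0.88, SE 0.29, unadjusted p = 0.00844 from limma). *WRKY60* measured 16.5, 15.3 and 11.7 FPKM in *kaku4-2* and 15.2, 11.4 and 12.3 FPKM in WT, with overlapping genotypes, and did not pass the cutoff (log2 fold change 0.15). *WRKY18* and *WRKY40* passed the cutoff in all 6 fits with a library left out. In every *kaku4-2* library *WRKY40* was the highest of the 3 genes and *WRKY60* the lowest, whereas in every WT library *WRKY18* was the highest.

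In group IIb, *WRKY31*, *WRKY42*, *WRKY61* and *WRKY72* were weakly expressed, whereas *WRKY6* and *WRKY47* averaged 7.25 and 3.36 FPKM over the libraries. *WRKY31* (AT4G22070) was listed at 0 in the 3 WT libraries and measured 0.131, 0.0805 and 0.410 FPKM in *kaku4-2*. It passed the cutoff with a WT median of 0 and an unadjusted p of 0.049 from limma, and no fold is given for it. The call was kept in none of the 6 fits with a library left out, in 2 of which the gene did not reach the minimum for the test. *WRKY42* (AT4G04450) and *WRKY72* (AT5G15130) did not reach the minimum for the test. *WRKY6* (AT1G62300), known from senescence and from phosphate transport, measured 7.39, 8.54 and 7.84 FPKM in *kaku4-2* and 4.65, 7.07 and 8.04 FPKM in WT, overlapped between the genotypes and did not pass the cutoff (log2 fold change 0.30). *WRKY47* (-0.41) and *WRKY61* (0.57) did not pass it either.

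In group IIc, 2 of 9 genes were upregulated, *WRKY48* (AT5G49520) and *WRKY75* (AT5G13080). *WRKY75*, which encodes a factor of phosphate starvation and senescence, measured 54.9, 55.0 and 27.7 FPKM in *kaku4-2* and 20.6, 23.7 and 35.1 FPKM in WT. The genotypes overlapped, since *kaku4-2* replicate 3 was below WT replicate 3. Its log2 fold change was 0.76 (SE 0.33, unadjusted p = 0.0384 from limma), and the gene passed the cutoff in 2 of 6 fits with a library left out. *WRKY48*, known as a negative regulator of basal resistance, measured 1.04, 0.984 and 2.11 FPKM in *kaku4-2* and 0.462, 0.374 and 0.638 FPKM in WT, without overlap (log2 fold change 1.27, SE 0.47, unadjusted p = 0.0178). *WRKY51* (AT5G64810) and *WRKY50* (AT5G26170), the pair with the variant heptad shown above, act in the repression of jasmonate responses. *WRKY51* measured 50.5, 49.1 and 15.5 FPKM in *kaku4-2* and 20.6, 27.2 and 32.6 FPKM in WT, so that *kaku4-2* replicates 1 and 2 were above all WT libraries and replicate 3 below all of them. It did not pass the cutoff (log2 fold change 0.35, SE 0.41), but without *kaku4-2* replicate 3 it did, with a log2 fold change of 0.92. *WRKY50* measured 14.9, 12.7 and 10.3 FPKM in *kaku4-2* and 9.50, 6.53 and 8.75 FPKM in WT, without overlap, and did not pass the cutoff (log2 fold change 0.61, unadjusted p = 0.0613). The other 5 genes of the group, *WRKY8* (AT5G46350), *WRKY23* (AT2G47260), *WRKY28* (AT4G18170), *WRKY45* (AT3G01970) and *WRKY57* (AT1G69310), overlapped between the genotypes, with log2 fold changes of -0.36 to 0.60.

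In groups IId and IIe, 1 of 14 genes was upregulated. In group IId the log2 fold change was above 0 in 1 gene and below 0 in 6 (median -0.23), but without *kaku4-2* replicate 3 it was above 0 in 4 and below 0 in 3 (median 0.08), and with library weights above 0 in 5 and below 0 in 2 (median 0.10). In group IIe it was above 0 in 2 genes and below 0 in 5 (median -0.14), and the median was below 0 in every alternative that tested all 7 genes. *WRKY11* (AT4G31550), which encodes a calmodulin-binding factor known as a negative regulator of basal resistance, measured 13.1, 12.4 and 15.3 FPKM in *kaku4-2* and 9.21, 7.33 and 5.73 FPKM in WT, without overlap (log2 fold change 0.89, SE 0.30, unadjusted p = 0.0102 from limma). *WRKY17* (AT2G24570), a close relative with a like function, measured 4.83, 6.13 and 7.73 FPKM in *kaku4-2* and 7.67, 10.5 and 9.05 FPKM in WT. Here *kaku4-2* replicate 3 overlapped WT replicate 1, and the log2 fold change was -0.55 (SE 0.31, unadjusted p = 0.0998). The 2 genes thus stood on opposite sides of 0, and only *WRKY11* passed the cutoff, while the difference between their changes was not tested. *WRKY15* (AT2G23320), known from the oxidative stress response and the most abundant WRKY transcript in WT, measured 99.9, 98.9 and 44.5 FPKM in *kaku4-2* and 71.4, 91.5 and 109 FPKM in WT. It overlapped between the genotypes, its log2 fold change was -0.23 (SE 0.34, unadjusted p = 0.510), and the sign was positive without *kaku4-2* replicate 3 (0.16), with quantile normalization (0.16), with the length trend removed (0.03) and with library weights (0.10). *WRKY69* (AT3G58710) measured 6.91, 7.65 and 3.99 FPKM in *kaku4-2* and 8.62, 7.79 and 9.90 FPKM in WT, the only member with all *kaku4-2* libraries below all WT libraries, and did not pass the cutoff (log2 fold change -0.54, unadjusted p = 0.121). *WRKY22* (AT4G01250) and *WRKY29* (AT4G23550), which encode factors downstream of the kinase cascade of flagellin perception, had log2 fold changes of 0.62 and 0.78 and did not pass the cutoff. The other 8 genes, *WRKY7*, *WRKY21*, *WRKY39* and *WRKY74* of group IId and *WRKY14*, *WRKY27*, *WRKY35* and *WRKY65* of group IIe, had log2 fold changes of -0.41 to -0.09 and none passed it.

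**Figure D2:**
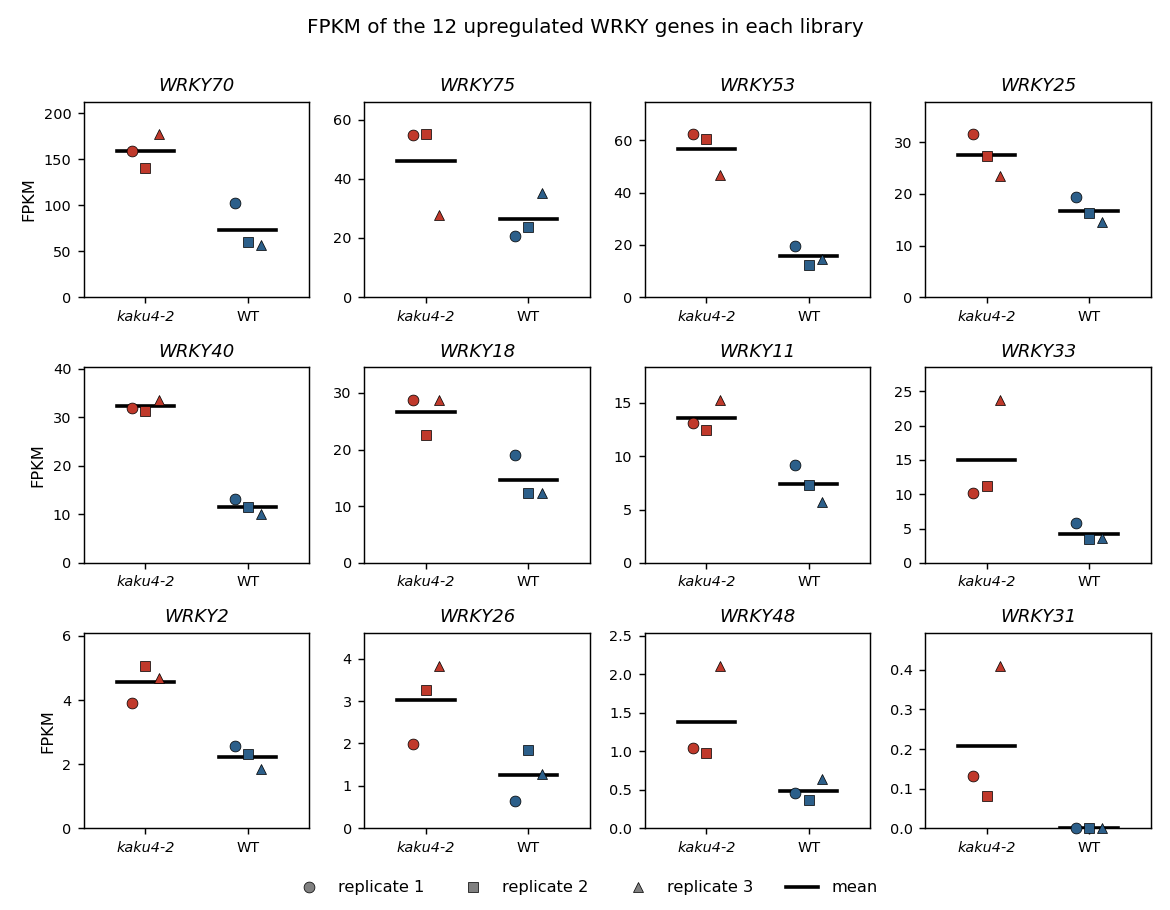
FPKM on a linear y axis from 0 in each of the 3 *kaku4-2* libraries (left, red) and the 3 WT libraries (right, blue) for the 12 upregulated WRKY genes, with symbols for the replicate numbers and a black line at the mean. The genotypes overlap in *WRKY75* alone, *WRKY31* is listed at 0 in WT, and *kaku4-2* replicate 3 is the highest library in *WRKY33* (23.7 FPKM) and the lowest *kaku4-2* library in *WRKY53* (46.8 FPKM).

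The family was dominated by a few transcripts, and their order differed between the genotypes. The 5 members with the highest mean FPKM over the 6 libraries were *WRKY70*, *WRKY15*, *WRKY75*, *WRKY53* and *WRKY51*, all described above. FPKM is scaled by transcript length, but the libraries differed in a trend with length that is described below, so the order of genes of unlike length is approximate, above all in *kaku4-2*. By mean FPKM, *WRKY70* was 1st in *kaku4-2* and 2nd in WT, *WRKY15* was 2nd in *kaku4-2* and 1st in WT, and *WRKY53* 3rd in *kaku4-2* and 10th in WT. *WRKY40* was 7th in *kaku4-2* and 14th in WT, and *WRKY33* was 15th in *kaku4-2* and 24th in WT. *WRKY39* (AT3G04670) went the other way, 11th in *kaku4-2* and 3rd in WT, although its change did not pass the cutoff (log2 fold change -0.41, unadjusted p = 0.200 from limma). Its lowest value was in *kaku4-2* replicate 3, and without that library the log2 fold change of *WRKY39* was -0.11. Its WT mean of 26.85 FPKM was close to those of *WRKY51* and *WRKY75* (26.8 and 26.45 FPKM). *WRKY70* alone made up 19.3%, 18.0% and 26.9% of the summed FPKM of the family in *kaku4-2* and 19.3%, 12.5% and 10.9% in WT. These shares overlapped between the genotypes, *kaku4-2* replicate 1 and WT replicate 1 being alike. At the low end, 13 members had a mean below 1 FPKM, and 4 members, *WRKY31*, *WRKY42*, *WRKY61* and *WRKY72*, were listed at 0 in at least 1 library.

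The replicate libraries of *kaku4-2* disagreed on many members, in a way that went with transcript length. Of the 25 tested members longer than 1579 bases, the median length, *kaku4-2* replicate 3 was above both other *kaku4-2* libraries in 15 and below both in 7. Of the 25 shorter ones it was above both in 7 and below both in 18. The median of its difference from the average of the other replicates was 0.38 on the log2 scale in the longer members and -0.40 in the shorter ones. Over the 50 members the deviation and the length had a Spearman rho of 0.41 and a Pearson r of 0.41 with log2 length, as a description, since all points share the same 3 libraries. The median log2 fold change was 0.56 in the longer members, 7 of them upregulated, and 0.49 in the shorter ones, 5 of them upregulated. Without *kaku4-2* replicate 3 these medians were 0.27 in the longer and 0.48 in the shorter members. With the length trend removed from each library, 17 members were upregulated, beside 7.16% of all genes tested. Among them were the short genes *WRKY50*, *WRKY51*, *WRKY22*, *WRKY41*, *WRKY46* (AT2G46400) and *WRKY54*. *WRKY2*, the longest member at 3035 bases, was not upregulated in that fit.

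**Figure D3:**
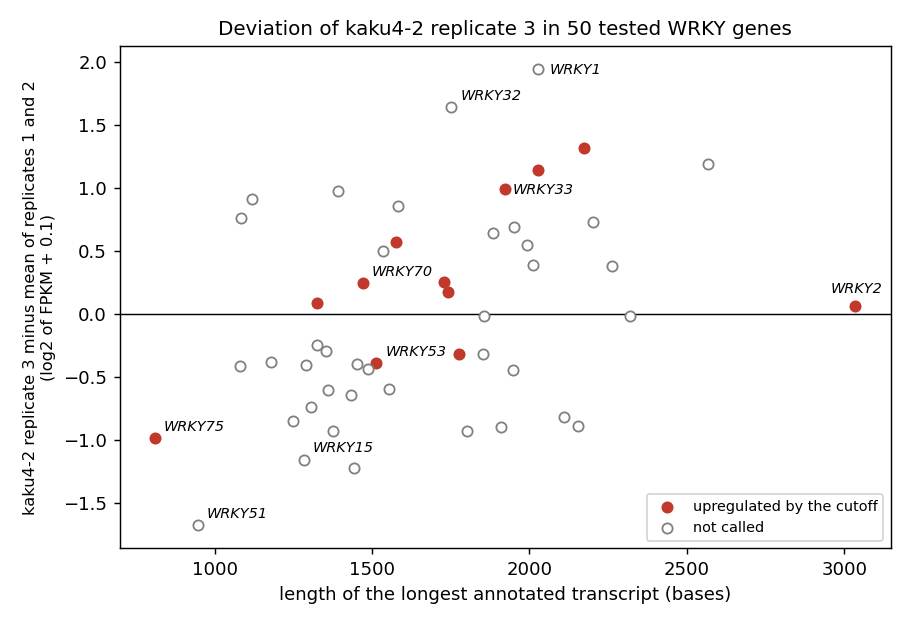
Difference of *kaku4-2* replicate 3 from the average of the other *kaku4-2* libraries, as log2 of FPKM + 0.1, on the y axis against the length of the longest annotated transcript in bases on the x axis, for the 50 tested WRKY genes, with the 12 upregulated genes filled. The short genes *WRKY51* and *WRKY75* lie below 0 (-1.68 and -0.99), *WRKY33* lies at 1.14, and the longest gene, *WRKY2*, at 0.07.

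The scale of the libraries also bore on the counts. With scaling by the median ratio, the median log2 fold change of all genes was 0.12 in place of -0.02. In that fit 18 members were upregulated, beside 6.89% of all genes tested, and 0 downregulated, and the median of the members was 0.67. The median was below its value of 0.55 with quantile normalization (0.43), with library weights (0.39), with a pseudocount of 1 (0.31) and with each library left out in turn (0.38 to 0.51). Over all genes tested, 43.1% of the genes called were upregulated on the deposited scale and 60.8% after this scaling. *WRKY18*, *WRKY33*, *WRKY40*, *WRKY53* and *WRKY70* were upregulated in each of the 17 alternatives run. WT replicate 1 was the highest WT library in 8 of the 12 upregulated genes, and without it 11 members were upregulated, beside 7.33% of all genes tested.

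The 300 bases before the annotated start of each gene were searched for the W box letters TTGACC and TTGACT on both strands (GGTCAA and AGTCAA when read on the strand of the gene). A match was found for 21 of 52 members (40.4%) and for 32.3% of 27443 annotated protein-coding genes, and 2 or more matches for 10 members (19.2%) and for 7.91% of all. Of the 12 upregulated members 7 had a match (58.3%), and of the other 40 members 14 had one (35.0%). These shares are descriptions of letters in a window, and no binding was measured here. *WRKY33* held 3 matches and *WRKY53* held 2, and *WRKY41* held 2 at distances close to those of *WRKY53*. None was found in the windows of *WRKY40*, *WRKY18* and *WRKY70*. The matches are shown with their flanks in the direction of transcription, W box letters in capitals, because they set the strongly changed *WRKY33* and *WRKY53* beside *WRKY41*, which did not pass the test.
WRKY33, -292 from the start, chr2:16107935-16107960, plus strand: acacctacAGTCAAaattttcaagat
WRKY33, -96, chr2:16108127-16108156, plus strand: tcaacgtttgagAGTCAAggccacaaggtc
WRKY33, -32, chr2:16108191-16108220, plus strand: catattttcaacGGTCAAactttttatcac
WRKY53, -219, chr4:12394184-12394213, minus strand: attggtcagcctTTGACCttatactctttc
WRKY41, -194, chr4:6758892-6758921, plus strand: tttggtcagcatTTGACCtatagtaaacac
WRKY53, -71, chr4:12394036-12394065, minus strand: gtttggtcatttGGTCAAattttcaaacac
WRKY41, -78, chr4:6759008-6759037, plus strand: gtttgctcacttGGTCAAattttcaaacat

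Between *WRKY53* and *WRKY41*, 27 of the 30 bases around the match nearer to the start were the same, and 18 of 30 around the farther one. Both counts include the W box letters, by which the windows were chosen and which were the same within each pair. In these libraries *WRKY53* averaged 56.5 ± 8.50 FPKM in *kaku4-2* and 15.6 ± 3.71 FPKM in WT (SD, n = 3 each), whereas *WRKY41* reached at most 1.31 FPKM in *kaku4-2* and 0.678 FPKM in WT. The longest exact stretch shared by the transcripts of any 2 members was 36 bases, in *WRKY11* with *WRKY17* and in *WRKY41* with *WRKY53*. Stretches that are alike but for mismatches were not searched, so whether reads were shared between relatives was not tested. Of the upregulated genes, *WRKY2*, *WRKY33*, *WRKY40* and *WRKY53* overlap a gene of the table on the other strand, and the strand setting of the counting is not given in the sources used here. The overlap covers 1.42%, 1.28%, 3.85% and 20.5% of their exon bases. The gene that overlaps *WRKY53* measured 0.729 to 1.92 FPKM in *kaku4-2* and 0.824 to 1.19 FPKM in WT, below every value of *WRKY53*. The neighbour of *WRKY2* measured 20.1 to 29.4 FPKM in *kaku4-2* and 22.5 to 31.1 FPKM in WT, above every value of *WRKY2*. That of *WRKY33* measured 11.5 to 22.8 FPKM and 24.5 to 41.9 FPKM, and that of *WRKY40* 6.66 to 13.4 FPKM and 10.3 to 12.5 FPKM. The part of these neighbours in the values of the members was not tested. *WRKY41* shares 41.7% of its exon bases with a gene of like level, 0.439 to 2.10 FPKM in *kaku4-2* and 0.471 to 0.60 FPKM in WT, so its values are uncertain.

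The genes around the WRKY factors were followed in lists of upstream kinases, of protein partners with a VQ motif and of genes reported as WRKY targets. These lists, too, were drawn up with earlier results of these data known, and their counts stand beside 5.02% of all genes tested upregulated and 6.64% downregulated. Of 9 kinases, 2 were upregulated (22.2%) and 1 was downregulated (median log2 fold change 0.01). *MPK3*, which encodes a kinase that phosphorylates WRKY33, measured 87.4, 74.0 and 88.7 FPKM in *kaku4-2* and 62.9, 32.1 and 34.5 FPKM in WT (log2 fold change 1.01, SE 0.30, unadjusted p = 0.005 from limma). Its libraries did not overlap, whereas *MPK6*, the partner of *MPK3* in the same cascade, had a log2 fold change of 0.01 and overlapped between the genotypes. *MKK1*, of the branch that leads to MPK4, had a log2 fold change of 0.83 and was upregulated, and *MKK5*, which acts on MPK3 and MPK6, had -0.62 and was downregulated, a call that held in 1 of 6 fits with a library left out. Of the 10 VQ partners, which bind WRKY domains, 0 passed the cutoff in limma, 0 had an unadjusted p of at most 0.05, and log2 fold changes ran from -0.73 in *VQ29* to 0.58 in *VQ10*. With the length trend removed, 4 of them were upregulated (beside 7.16% of all genes tested). Without *kaku4-2* replicate 3, 3 were upregulated (beside 4.65%) and 1 downregulated.

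Of 17 tested genes reported as WRKY targets, 10 were upregulated (58.8%, beside 5.02% of all genes tested) and 0 downregulated (beside 6.64%), with a median log2 fold change of 0.93 against -0.02 over all genes. Reported targets are taken from knowledge of the family and no regulation was measured here. The camalexin genes *PAD3*, *CYP71A12* and *CYP71A13*, for which WRKY33 is a known activator, had log2 fold changes of 1.18, 1.57 and 0.77. *PAD3* measured 8.77, 11.6 and 19.7 FPKM in *kaku4-2* and 6.13, 6.27 and 4.38 FPKM in WT. It was highest in *kaku4-2* replicate 3, the library that stood apart from the others. Of the other upregulated targets, *CYP71A12*, *CYP71A13*, *ACS2*, *ERF109*, *FRK1*, *EDS1* and *NPR1* were highest there too, and *ACS6* and *PR1* were not. The ethylene synthesis genes *ACS2* and *ACS6* had log2 fold changes of 1.32 and 1.16, and *ERF109* had the largest of the list, 1.76, with 2.62, 1.77 and 3.24 FPKM in *kaku4-2* and 0.741, 0.763 and 0.504 FPKM in WT. The genotypes did not overlap in any of these 6 genes, and all 6 passed the cutoff. The immune genes *FRK1*, *EDS1*, *NPR1* and *PR1* were upregulated as well, with log2 fold changes of 0.93 to 1.62, of which *PR1* overlapped between the genotypes because *kaku4-2* replicate 3 (617 FPKM) was below WT replicate 3 (667 FPKM). The call of *PR1* held in 2 of 6 fits with a library left out and was lost with the replicate block. *ICS1*, which encodes the enzyme of salicylic acid synthesis, measured 9.22, 8.45 and 14.5 FPKM in *kaku4-2* and 6.24, 6.12 and 5.30 FPKM in WT. Its libraries were separated, but its log2 ratio of medians of 0.59 fell just short of the cutoff. The other 6 tested targets, *JAZ8*, *PHO1*, *PHT1;1*, *GL2*, *BOR1* and *CAT2*, did not pass it, the lowest being the catalase gene *CAT2* (log2 fold change -0.50), and *ABI5* did not reach the minimum for the test. *CAT2* alone of the targets was downregulated with the length trend removed (-0.78) and without *kaku4-2* replicate 3 (-0.94). Of all genes tested, 1080 of 20638 and 1369 of 20555 were downregulated in these fits. In each of the fits 10 targets were upregulated (beside 7.16% and 4.65% of all genes tested).

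**Figure D4:**
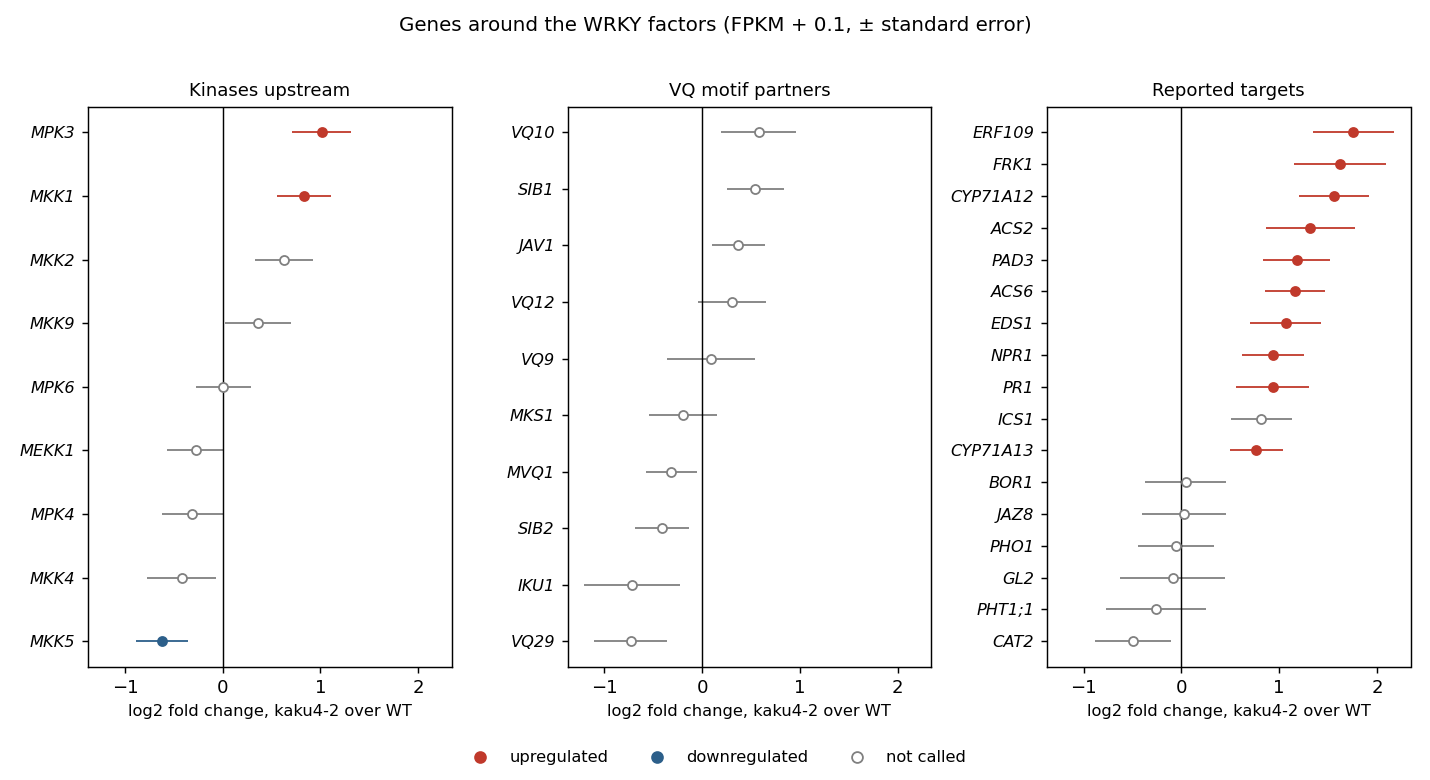
Log2 fold change of FPKM + 0.1, *kaku4-2* over WT, on the x axis with ± 1 standard error from limma, for 9 upstream kinases, 10 VQ motif partners and 17 tested genes reported as WRKY targets, sorted within each panel. Red points are upregulated and the blue point (*MKK5*) is downregulated by the cutoff, and 10 of 17 targets, 2 of 9 kinases and 0 of 10 VQ partners are red.

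The members were also read by the process they were studied in. Of 9 genes studied in leaf senescence, 3 were upregulated (*WRKY53*, *WRKY70* and *WRKY75*), 33.3% beside 24% of all tested members and 5.02% of all genes, with a median log2 fold change of 0.58. Of 19 genes studied in defence, 7 were upregulated (36.8%, beside the same shares), with a median of 0.62. The 2 lists share members. Of the 17 genes with a WRKY name that were not on the list of members, 13 were tested. Of these, 2 were upregulated (*WRKY13* and *WRKY59*, 15.4%, beside 5.02% of all genes tested) and 1 was downregulated (*WRKY12*, beside 6.64%). They are named here after their values were seen. *WRKY59* was listed at 0 in every WT library and reached the minimum for the test only through its *kaku4-2* values. *WRKY13* and *WRKY12* overlapped between the genotypes. The 17 genes together measured 11.6 to 14.1 FPKM in *kaku4-2* and 9.40 to 14.2 FPKM in WT, beside the 659 FPKM or more of the 52 members in each *kaku4-2* library.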

How the data were processed

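Total RNA of rosette leaves was sequenced as paired-end reads. Alignment to TAIR10 by the authors used TopHat2 v2.0.9 and FPKM per gene came from Cufflinks. The deposited FPKM values are relative to a per-library total, and the version of Cufflinks, the annotation and the strand setting are not given in the sources used here. Groups came from the genotype labels. FPKM are not counts, so limma 3.58.1 in R 4.3.3 was used on log2(FPKM + 0.1) for genes averaging at least 0.1 FPKM, two-sided, without covariates and with a trend in the prior variance, and p-values were adjusted by Benjamini-Hochberg over all genes tested. A median of 0 counted as past the fold cutoff. Names, transcript lengths and sequences came from RefSeq's TAIR10.1 genome and annotation, which held 22881 of the loci. The members and gene lists were chosen with earlier results of these data known. The genes named with values per library are members past the cutoff or with an adjusted p of at most 0.05, the 5 members with the highest mean FPKM, *WRKY33*, *WRKY58* and, chosen after their values were seen, the close relatives beside them. Also tried were pseudocounts of 1 and 0.01, no filter and a mean FPKM of at least 1, scaling by the median ratio, quantile normalization, removal of the length trend, library weights, no trend of the prior variance, the fold from mean log2 values, a replicate block and each library left out.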

Additional observations from a re-analysis of the deposited data

How the results depend on the processing

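The members upregulated by the cutoff numbered 8 to 18 over the alternatives, and 8 to 17 with a library left out, against 12. Of all genes tested, 2.64% to 10.3% were upregulated over the alternatives, and 2.64% to 7.33% with a library left out, against 5.02%. Of the members downregulated, there were 0 under all alternatives but 1 with library weights, and 0 to 2 with a library left out. The members with a Benjamini-Hochberg adjusted p of at most 0.05 in limma numbered 21 with library weights (where 24.5% of all genes tested reached it, against 0.48%), 4 with the length trend removed (1.34% of all genes), 0 with no trend of the prior variance (0.174%) and 0 to 3 with a library left out (0.097% to 1.59%), against 2. The library weights were estimated with a warning that the iteration had not converged. The replicate numbers did not pair the samples: the deviations of same-numbered libraries from their group means had correlations of -0.16, -0.03 and -0.41. With the replicate block, 9 members were upregulated (beside 3.42% of all genes tested) and 1 had an adjusted p of at most 0.05 in limma (beside 0.349%). *WRKY15* changed sign with library weights (0.10), with the length trend removed (0.027), with quantile normalization (0.16) and by leaving out *kaku4-2* replicate 3, the values being -0.43 to 0.16 over the fits with a library left out. The log2 fold change of *KAKU4* was below 0 and passed the cutoff in every alternative. The unknown number of fragments behind each value and 3 libraries per genotype limit the precision of weakly expressed members such as *WRKY31*.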
